A study of Bos taurus with 4 samples.

Results

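The genes described are those of the interferon response: the receptors, kinases and transcription factors that carry an interferon signal, and the genes that the signal switches on. Members were chosen by gene symbol alone, namely every row of the deposited expression table whose bovine symbol begins with IFI, ISG, MX1, MX2, OAS, IRF, IFNAR, IFNGR, GBP, JAK, TYK2 or STAT and a digit, plus a short list of named genes such as RSAD2, USP18, EIF2AK2 and DHX58. This gave 59 genes, each with 1 transcript row, of 14517 rows in all. A further 18 genes of the RefSeq gene list have symbols that match but were not analysed here, among them IFIH1, RIGI, ADAR, IFI44, IFIT2, JAK2 and IFNGR2.

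The samples were poly(A)-selected RNA of cattle (Bos taurus) embryos at the 8- to 16-cell stage, collected 3 days after insemination, when the embryo's own genome becomes active. Every embryo had been injected at the zygote stage with small interfering RNAs (siRNAs), so the controls had been injected with RNA as well. The control group (NC, 2 libraries) received negative control siRNAs and the knockdown group (KDM5_KD, 2 libraries) is named in the sample titles for a Kdm5 knockdown. KDM5_KD replicate 1 was labelled as injected with siRNAs against KDM5A, KDM5B and KDM5C, which encode demethylases of lysine 4 of histone H3, while the treatment entry of KDM5_KD replicate 2 names KDM6A, B and C instead. The number of embryos pooled per library and whether libraries came from separate batches of embryos are not given in the sources used here, so p-values measure only the spread between these libraries.

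Interferons are secreted proteins that bind cell-surface receptors. The receptors activate the Janus kinases JAK1 and TYK2, which phosphorylate STAT factors, and these join IRF9 in a complex that enters the nucleus and switches on interferon-stimulated genes. The signal starts upstream when sensors such as RIG-I, MDA5 or cGAS meet double-stranded RNA or stray DNA and act through IRF3 and IRF7 to switch on interferon genes. In cattle the pathway has a second role in reproduction, since the trophectoderm of the later conceptus secretes interferon tau, which signals pregnancy to the mother.

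Levels are given in FPKM, fragment counts scaled by transcript length and library size, which can be compared between genes. Between 8427 and 9160 rows per library were at 1 FPKM or more. Absolute read depth is unknown, but the steps of the lowest values put NC replicate 1 at 0.681 times and the knockdown libraries at 0.801 and 0.784 times the depth of NC replicate 2. All 13 rows of the oocyte and blastomere markers had a mean of at least 1 FPKM, and BMP15, an oocyte growth factor, measured 118 and 83.8 FPKM in the controls and 149 and 172 in the knockdown libraries. KDM5A was at 28.4 and 27.1 FPKM in NC, against 10.5 and 10.1 in KDM5_KD. It fell by 1.35 on the log2(FPKM + 1) scale (SE 0.142, adjusted p in limma 0.0333), a call lost without NC replicate 2 or without either knockdown library (limma adjusted p between 0.0625 and 0.232). KDM5B was not analysed here. KDM5C had control values of 28.1 and 40.6 FPKM and knockdown values of 15.1 and 17.8 FPKM. KDM6A had 7.63 and 11.3 FPKM in NC against 7.90 and 9.29 in KDM5_KD, so the library whose treatment entry names KDM6 had KDM6A within the control range and KDM5A below it.

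No interferon gene passed the test after adjustment, but most had higher values in both knockdown libraries than in either control, with the largest differences for IFI6, MX1 and IFITM1. Across all 59 members, 42 were entirely above the controls, meaning that both knockdown values exceeded both NC values, 1 was entirely below and 16 overlapped. Among the 12687 rows of the whole table with a value above 0 in any library, 33.4% were entirely above and 13.5% entirely below. Where these shares are given below for all rows, they refer to these 12687 rows. The median log2 fold change, the difference of group means of log2(FPKM + 1), was 0.54 over the 59 members and 0.07 over these rows. At least a 2-fold difference on this scale, always higher in KDM5_KD, was found for 15 of the 59, against 3.25% of the rows that were higher by as much.

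A test was made for each transcript with a mean of at least 1 FPKM over the 4 libraries, using limma across 8970 transcripts, and 48 of the 59 members met this filter. Of these, 0 members passed an adjusted p of 0.05 in limma in either direction, against 0.19% of all transcripts tested that were higher (17) and 0.0892% that were lower (8). The lowest adjusted p of a member in limma was 0.118, for PARP9, which passed the filter through KDM5_KD. At an unadjusted limma p under 0.05, 26 members were higher and 0 lower, where 14.3% of all transcripts tested were higher and 3.12% lower. The log2 fold change was above 0 for 43 of the 48 (62.6% of all transcripts tested), at least 1 for 15 (4.52%) and -1 or less for 0 (0.301%). Both knockdown values lay above both controls for 36 of the 48 (35.1% of all transcripts tested) and below for 1 (15.6%). The filter favoured members that were high in the knockdown: 11 of the 48 had an NC mean under 1 FPKM and 0 had a KDM5_KD mean under 1 FPKM. Of all transcripts tested, 4.33% had an NC mean under 1 FPKM. The counts of the 48 by p-value and by fold change include these 11, so they are not read against the shares beside them. Among the 37 members with an NC mean of at least 1 FPKM, 26 were entirely above the controls, against 32.6% of the 8625 rows with such a mean.

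**Figure D1:**
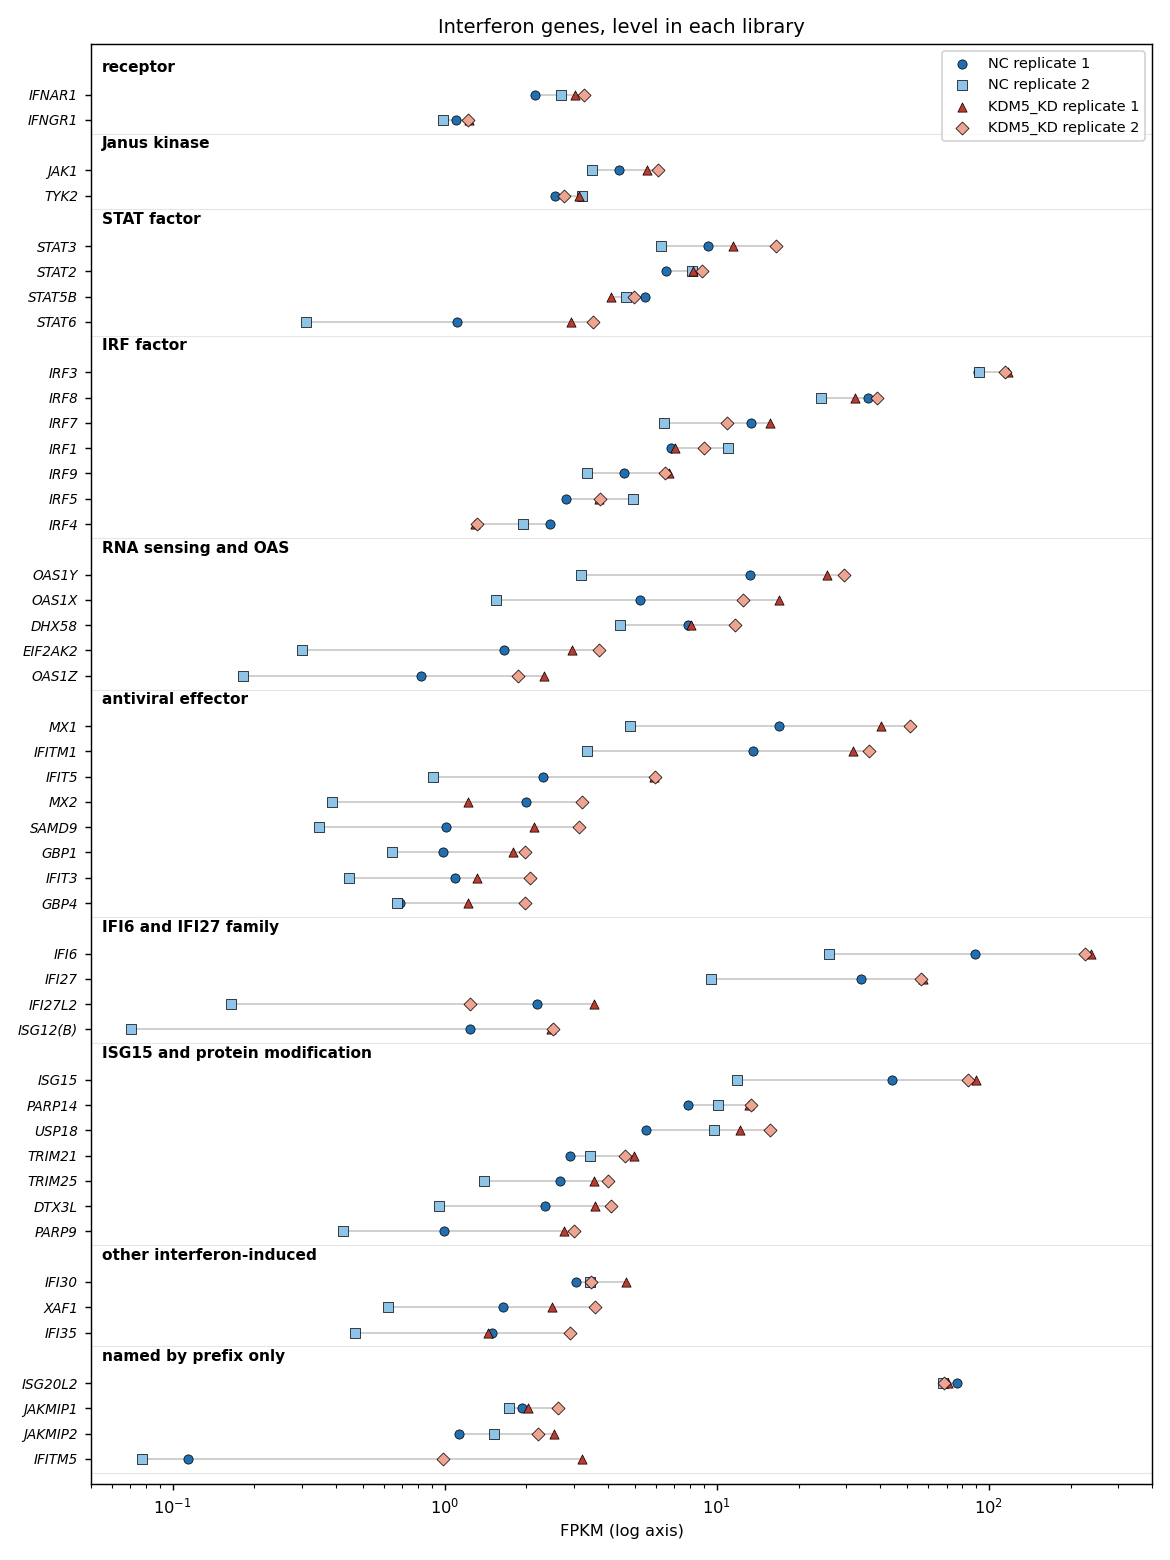
FPKM (log axis) of 46 of the 48 interferon genes with a mean of at least 1 FPKM, 1 row per gene, grouped by role, with 1 point per library. For most sensors and effectors NC replicate 2 is lowest, NC replicate 1 lies in between and both knockdown libraries are highest, as for IFI6 (25.9, 89.0, 226 and 237 FPKM), while the points of ISG20L2, TYK2 and IRF1 are intermingled.

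The receptors were expressed at low levels. IFNAR1, a chain of the type I interferon receptor, measured 2.15 and 2.67 FPKM in the controls and 3.01 and 3.25 in the knockdown libraries, and its partner chain IFNAR2 did not reach 1 FPKM in any library. IFNGR1, a chain of the interferon gamma receptor, was at 1.10 and 0.988 FPKM in NC, against 1.23 and 1.22 in KDM5_KD. In each of the 3 genes both knockdown values lay above both control values, but the gaps were small: IFNAR1 differed by 0.28 in log2 fold change and IFNGR1 by 0.12, at adjusted p in limma of 0.532 and 0.802. After quantile normalization both had the opposite sign.

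Of the Janus kinases, JAK1, which serves both interferon receptor types, had control values of 4.37 and 3.48 FPKM and knockdown values of 5.56 and 6.11 FPKM (log2 fold change 0.48 with an SE of 0.201, adjusted p in limma 0.298). TYK2, its partner at the type I receptor, had control values of 2.55 and 3.21 FPKM and knockdown values of 3.12 and 2.75 FPKM. Its groups overlapped, and the sign of its difference (0.02) changed under all 3 scalings tried.

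The STAT factors differed in level and in pattern, with 5 of the 7 genes entirely above the controls (33.4% of all rows). STAT2, which acts downstream of type I interferon, measured 6.50 and 8.14 FPKM in the controls and 8.20 and 8.87 in the knockdown libraries. Its groups were separated only by the small gap between NC replicate 2 and KDM5_KD replicate 1, and its log2 fold change of 0.20 became -0.0003 after quantile normalization. STAT3, better known for cytokine signals of the interleukin 6 family, had 9.29 and 6.23 FPKM in NC against 11.5 and 16.5 in KDM5_KD.

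STAT6, the factor of interleukin 4 signalling, had the largest difference of the family among the genes tested. It was at 1.11 and 0.310 FPKM in NC, against 2.91 and 3.50 in KDM5_KD, so both knockdown values were far above the higher control. Its log2 fold change was 1.33 (SE 0.285). The NC mean of STAT6 was 0.713 FPKM, so it passed the filter through KDM5_KD and nothing is read from its test. STAT5B measured 5.44 and 4.65 FPKM in the controls and 4.09 and 4.98 in the knockdown libraries, and its groups overlapped. STAT4 and STAT5A were below the filter.

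Among the 9 interferon regulatory factors, which bind DNA at interferon-responsive genes, 3 were entirely above the controls, 1 entirely below and 5 overlapped, close to the 33.4% of all rows entirely above. IRF3, the factor activated by RNA and DNA sensors, had the second highest mean level of all members. It had control values of 91.2 and 92.4 FPKM and knockdown values of 118 and 115 FPKM, and the libraries within each group were nearly equal (log2 fold change 0.34 with an SE of 0.108, adjusted p in limma 0.205). IRF9, the DNA-binding partner of STAT2, had 4.57 and 3.35 FPKM in NC against 6.70 and 6.48 in KDM5_KD (log2 fold change 0.63, adjusted p in limma 0.218). IRF4, a lymphocyte factor, was the only member entirely below the controls, with 2.44 and 1.95 FPKM in NC and 1.29 and 1.32 FPKM in KDM5_KD (log2 fold change -0.46, adjusted p in limma 0.319).

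Of the other factors, IRF1, IRF5, IRF7 and IRF8 overlapped between groups. IRF7, which amplifies type I interferon production and is itself interferon-stimulated, measured 13.4 and 6.41 FPKM in the controls and 15.7 and 10.9 in the knockdown libraries. IRF8, a factor of myeloid cells, was at 35.9 and 24.2 FPKM in NC, against 32.2 and 38.7 in KDM5_KD. In both genes NC replicate 1 reached into the knockdown range and NC replicate 2 was lowest. IRF1, an early interferon gamma target, was at 6.78 and 11.0 FPKM in NC, against 7.02 and 8.96 in KDM5_KD. Here NC replicate 2 was the highest library and NC replicate 1 the lowest. IRF5 ranged from 2.79 to 4.91 FPKM, both ends being control libraries, and IRF2 stayed under 1 FPKM in every library.

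Sensors of double-stranded RNA and the oligoadenylate synthetases (OAS), which answer such RNA by making a messenger that activates RNase L, had 7 of 8 genes entirely above the controls, against 33.4% of all rows. OAS1Y had control values of 13.3 and 3.18 FPKM and knockdown values of 25.4 and 29.5 FPKM. OAS1X had 5.22 and 1.55 FPKM in NC against 16.9 and 12.5 in KDM5_KD. OAS1Z measured 0.819 and 0.181 FPKM in the controls and 2.32 and 1.86 in the knockdown libraries. In all 3 both knockdown libraries were above NC replicate 1, which was in turn 3.36 to 4.52 times as high as NC replicate 2. OAS1Y and OAS1X differed by 1.88 and 1.96 in log2 fold change, at adjusted p in limma of 0.177 and 0.127. OAS1Z differed by 1.07, but its NC mean was 0.5 FPKM. It passed the filter through KDM5_KD, so nothing is read from its test. The 3 genes are close paralogs, and reads may be divided among their rows.

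EIF2AK2, the RNA-activated kinase PKR that shuts down translation, was at 1.66 and 0.300 FPKM in NC, against 2.93 and 3.68 in KDM5_KD (log2 fold change 1.21). Its NC mean was 0.978 FPKM, so it passed the filter through KDM5_KD and nothing is read from its test. DHX58, the helicase LGP2, had control values of 7.88 and 4.43 FPKM and knockdown values of 8.03 and 11.7 FPKM. Its groups did not overlap, but NC replicate 1 and KDM5_KD replicate 1 were nearly equal. MAVS, the mitochondrial adaptor through which RNA sensors signal, OAS2 and OASL had mean levels under 1 FPKM.

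The antiviral effectors were led by MX1 and IFITM1, and 8 of the 12 genes of this group were entirely above the controls, against 33.4% of all rows. MX1 (NM_173940), a dynamin-like GTPase that traps viral components, had 16.9 and 4.81 FPKM in NC against 40.2 and 51.6 in KDM5_KD. The group means were 10.8 ± 8.54 and 45.9 ± 8.09 FPKM (SD, n = 2 each), and the log2 fold change was 2.19 (SE 0.496, adjusted p in limma 0.133). IFITM1 (NM_001078142), a membrane protein that hinders viral entry, measured 13.6 and 3.34 FPKM in the controls and 31.7 and 36.3 in the knockdown libraries. Its log2 fold change was 2.13 (SE 0.526, adjusted p in limma 0.147).

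A related row outside the naming rule, picked after its values were seen, is LOC777594, for which the RefSeq list gives IFITM3 as a synonym. It had 31.4 and 10.9 FPKM in NC against 75.5 and 70.4 in KDM5_KD, again with NC replicate 2 lowest and both knockdown libraries above NC replicate 1. The row of LOC282255, which carries the same synonym, was at 25.3 FPKM in NC replicate 1 and at 0.00157 FPKM or less in the other 3 libraries. The estimates of these close copies are therefore uncertain, since reads may have been assigned to one copy or the other.

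IFIT5, which binds viral RNA ends, was at 2.31 and 0.904 FPKM in NC, against 5.88 and 5.94 in KDM5_KD (log2 fold change 1.46 with an SE of 0.299, adjusted p in limma 0.120). SAMD9, an antiviral factor, had control values of 1.01 and 0.346 FPKM and knockdown values of 2.14 and 3.12 FPKM. The groups of each were separated by a gap wider than the distance between the knockdown libraries. IFIT3 (1.09 and 0.446 FPKM in NC, 1.32 and 2.06 FPKM in KDM5_KD) and the guanylate-binding protein genes GBP1 (0.986 and 0.641 against 1.78 and 1.98 FPKM) and GBP4 (0.687 and 0.669 against 1.22 and 1.97 FPKM) had log2 fold changes between 0.61 and 0.67. The NC means of SAMD9, IFIT3, GBP1 and GBP4 were between 0.678 and 0.814 FPKM. These genes passed the filter through KDM5_KD, so nothing is read from their tests. MX2 overlapped, with 1.99 FPKM in NC replicate 1 and 1.22 FPKM in KDM5_KD replicate 1. RSAD2, the antiviral enzyme viperin, was below the filter, with 0.325 and 0.254 FPKM in NC and 1.76 and 1.02 FPKM in KDM5_KD. GBP5, IFI47 and IFITM2 were also below the filter and overlapped between groups.

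IFI6 (NM_001075588) had the highest level and the largest difference of all members tested. IFI6 and IFI27 encode small interferon-induced membrane proteins that act on mitochondria and on cell survival. IFI6 had 89.0 FPKM in NC replicate 1, 25.9 in NC replicate 2, 237 in KDM5_KD replicate 1 and 226 in KDM5_KD replicate 2. The group means were 57.5 ± 44.6 FPKM and 231 ± 7.67 FPKM (SD, n = 2 each). The knockdown libraries agreed closely while the controls differed 3.43-fold, and the log2 fold change of 2.24 had an SE of 0.512 (adjusted p in limma 0.133). IFI27 measured 33.8 and 9.55 FPKM in the controls and 57.4 and 56.5 in the knockdown libraries (log2 fold change 1.60, adjusted p in limma 0.207). ISG12(B), a gene of the same family, had 1.24 and 0.0704 FPKM in NC against 2.47 and 2.51 in KDM5_KD. The NC mean of ISG12(B) was 0.656 FPKM, so it passed the filter through KDM5_KD and nothing is read from its test. IFI27L2 overlapped, with NC replicate 1 above KDM5_KD replicate 2.

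All 7 genes of ISG15 conjugation, antiviral ubiquitin ligases and ADP-ribosylation were entirely above the controls, as were 33.4% of all rows. ISG15 (NM_174366), a ubiquitin-like protein that is attached to other proteins, had 44.1 and 11.9 FPKM in NC replicates 1 and 2, and 89.7 and 84.3 FPKM in KDM5_KD replicates 1 and 2. Its log2 fold change was 1.87 (SE 0.534, adjusted p in limma 0.177). USP18, the protease that removes ISG15 and dampens receptor signalling, measured 5.51 and 9.80 FPKM in the controls and 12.2 and 15.7 in the knockdown libraries (log2 fold change 0.82, adjusted p in limma 0.226). In USP18 the control order was opposite to that in ISG15, with NC replicate 2 the higher control.

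PARP9 and DTX3L encode partners in a complex that modifies histones and supports interferon signalling. PARP9 was at 0.995 and 0.425 FPKM in NC, against 2.75 and 2.98 in KDM5_KD (log2 fold change 1.20 with an SE of 0.242). Its NC mean was 0.71 FPKM, so it passed the filter through KDM5_KD and nothing is read from its test. DTX3L had control values of 2.33 and 0.952 FPKM and knockdown values of 3.56 and 4.09 FPKM. Both had nearly equal knockdown libraries and NC replicate 2 lowest. PARP14, a mono-ADP-ribosyltransferase, had 7.85 and 10.1 FPKM in NC against 13.1 and 13.4 in KDM5_KD, with NC replicate 2 the higher control. The ubiquitin ligase genes TRIM21 (2.89 and 3.41 against 4.96 and 4.59 FPKM) and TRIM25 (2.66 and 1.40 against 3.54 and 4.0 FPKM) had log2 fold changes of 0.48 and 0.68.

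Of 3 further interferon-induced genes, XAF1, a promoter of apoptosis, measured 1.64 and 0.617 FPKM in the controls and 2.48 and 3.57 in the knockdown libraries (log2 fold change 0.95). IFI30, a lysosomal thiol reductase of antigen processing, was at 3.05 and 3.41 FPKM in NC, against 4.64 and 3.45 in KDM5_KD, and IFI35 overlapped. The difference of IFI30 (0.25) had the opposite sign after quantile normalization.

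The naming rule also took in 4 genes that only share a prefix with the pathway. ISG20L2, a nucleolar exonuclease gene, had control values of 76.2 and 68.1 FPKM and knockdown values of 70.8 and 68.7 FPKM, and its groups overlapped. JAKMIP1 (1.92 and 1.73 against 2.03 and 2.61 FPKM) and JAKMIP2 (1.13 and 1.52 against 2.52 and 2.21 FPKM) encode proteins named for binding Janus kinases and microtubules. IFITM5, a bone-forming cell gene, passed the filter only through KDM5_KD, with 0.114 and 0.0772 FPKM in NC and 3.20 and 0.983 FPKM in KDM5_KD. Without these 4 genes, 39 of 55 members were entirely above the controls, against 33.4% of the 12687 rows with a value above 0.

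The median log2 fold change was 0.78 over the 34 sensors and effectors, including those below the filter, and 27 of them were entirely above the controls. Over the 21 receptors, kinases, STAT and IRF factors it was 0.34, and 12 were entirely above. Over all rows with a value above 0 the median was 0.07 and 33.4% were entirely above. The difference between these groups was not tested. Summed FPKM of the sensors and effectors was 269 and 103 in NC and 585 and 596 in KDM5_KD, and that of the signalling genes was 211 and 193 in NC and 251 and 264 in KDM5_KD.

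Differences in these libraries depended on expression level, which bears on how the members' median reads. With the tested transcripts split at the quartiles of mean FPKM into 4 groups, all transcripts had median log2 fold changes of 0.25, 0.16, 0.06 and -0.02 from the lowest to the highest group. The members in the same groups had medians of 0.68 (23 genes), 0.48 (11 genes), 0.80 (8 genes) and 0.97 (6 genes). In the lowest group 11 of the 23 members had an NC mean under 1 FPKM and passed the filter through KDM5_KD, so nothing is read from their median there. In the other 3 groups, where 0 of 25 members did, the members' medians were above those of all transcripts. The highest group holds IFI6, ISG15, IFI27, IRF3, IRF8 and ISG20L2. Quantile normalization, which gives every library the same distribution of values and shifted the median of all transcripts by -0.14, left 26 of 48 members entirely above the controls, against 20.7% of all transcripts. Of the sensors and effectors, 26 of 27 tested were higher in KDM5_KD after quantile normalization, with a median of 0.66. For all transcripts tested the median was then -0.05. The 48 and the 27 both include members that passed the filter through KDM5_KD, so these counts are not read against all transcripts.

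**Figure D2:**
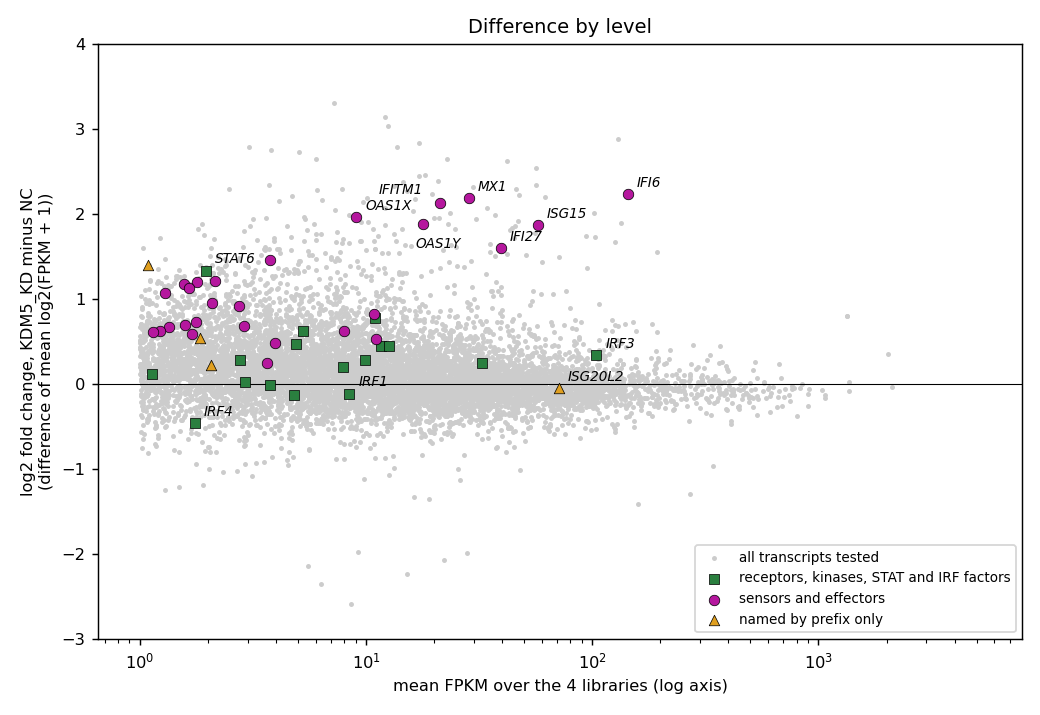
Log2 fold change (KDM5_KD minus NC, on log2(FPKM + 1)) against mean FPKM (log axis) for the 8970 transcripts tested (grey) and the 48 interferon genes tested (coloured by role). 11 transcripts, 0 of them interferon genes, lie outside the vertical range. IFI6, MX1, IFITM1, OAS1X, OAS1Y, ISG15 and IFI27 lie at log2 fold changes of 1.60 to 2.24, with mean levels from 9.05 (OAS1X) to 144 FPKM (IFI6), while IRF3 and ISG20L2, with means of 104 and 71.0 FPKM, lie at 0.34 and -0.05.

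The size of these differences depended on which control library was used. Of the 59 members, 43 had more FPKM in NC replicate 1 than in NC replicate 2, against 53.6% of the rows with a value above 0, and among the 48 tested 36 did, against 55.8%. The order NC replicate 2, NC replicate 1, both knockdown libraries was found in 33 of the 59, against 21.1% of these rows, and in 28 of the 48 tested, against 23.3%. Among the sensors and effectors it was found in 22 of 34, and among the receptors, kinases, STAT and IRF factors in 9 of 21. KDM5_KD replicate 2 was above replicate 1 for 31 of the 48, against 55.6% of all transcripts tested. The median difference of the 48 tested between the knockdown libraries was 0.09 (replicate 2 minus replicate 1), and 0.50 between the controls (replicate 1 minus replicate 2). For all transcripts tested these medians were 0.04 each.

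Without NC replicate 1, 13 members passed an adjusted p of 0.05 in limma, all higher in KDM5_KD, against 3.6% of all transcripts tested that were higher (323). They were EIF2AK2, IFI27, IFI6, IFIT5, IFITM1, ISG12(B), ISG15, MX1, OAS1X, OAS1Y, OAS1Z, PARP9 and STAT6, with adjusted p between 0.000891 and 0.0489. For 5 of the 13 (EIF2AK2, ISG12(B), OAS1Z, PARP9 and STAT6) the NC mean over both controls was under 1 FPKM, so they entered the test through KDM5_KD, where they were high. Without NC replicate 2, IFI6 alone passed (log2 fold change 1.37, adjusted p in limma 0.0326), against 0.334% of all transcripts. In these fits the lone control is assumed to vary like the other libraries. Against NC replicate 1 the knockdown mean of IFI6 was 2.60 times as high, that of MX1 2.72 times and that of ISG15 1.97 times. Against NC replicate 2 the same ratios were 8.91, 9.55 and 7.34. At least a 2-fold difference on the log2(FPKM + 1) scale was found for 7 members with only NC replicate 1 as control and for 21 with only NC replicate 2, against 2.79% and 7.13% of all transcripts tested. Both counts include members that passed the filter through KDM5_KD.

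Without KDM5_KD replicate 1, or without KDM5_KD replicate 2 whose treatment entry names KDM6, 0 members passed in limma, against 0.0557% and 0.0334% of all transcripts tested that were higher. The median log2 fold change of the 48 tested was then 0.79 and 0.57, and that of all transcripts 0.12 and 0.07. The 48 include 11 members with an NC mean under 1 FPKM, which passed the filter through KDM5_KD.

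**Figure D3:**
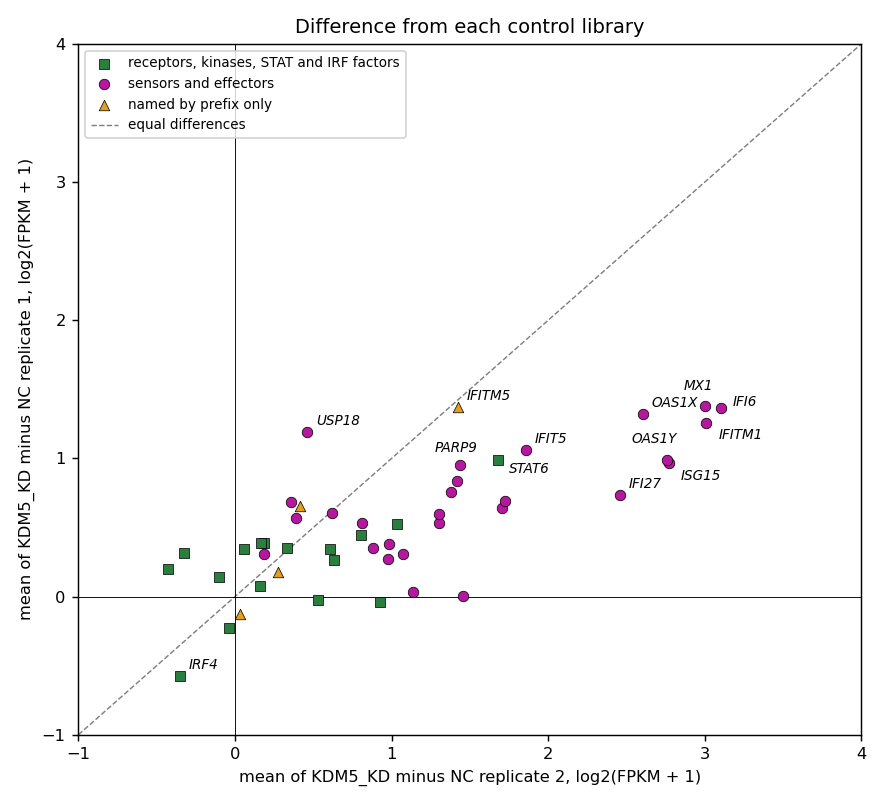
Mean of the KDM5_KD libraries minus NC replicate 1 (vertical) against the same mean minus NC replicate 2 (horizontal), on log2(FPKM + 1), for the 48 interferon genes tested. Both axes share the knockdown libraries. Most sensors and effectors lie right of the dashed line of equal differences, as for ISG15 at 2.77 and 0.96, while USP18 lies left of it at 0.46 and 1.19.

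Genes of the pathway outside the naming rule were compared from a list of 84 symbols, of which 61 genes had a row. The interferon genes themselves were barely detected. Of 21 ligand symbols listed 12 had a row, all were under 0.7 FPKM in every library, the highest being 0.631 FPKM, and 3 were listed at 0 throughout. The listed rows were of the alpha, beta, gamma, kappa, lambda, omega and tau types. Further alpha genes, interferon epsilon and others were not analysed here.

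Upstream signalling genes, such as the adaptor MYD88 and the kinase TBK1, had a median log2 fold change of 0.03 over 8 tested. Among these, 0 had an unadjusted limma p under 0.05, where 14.3% of all transcripts tested were higher and 3.12% lower. Of the 8, 2 were entirely above and 1 entirely below the controls. Over all 14 rows of this list, including those below the filter, 6 were entirely above, 1 was entirely below and 7 overlapped. Of all rows with a value above 0, 33.4% were entirely above and 13.5% entirely below. MYD88 had 6.82 and 6.92 FPKM in NC against 7.18 and 7.53 in KDM5_KD, a difference of 0.09 whose sign changed under all 3 scalings. RELA, a subunit of NF-kappa-B, measured 27.3 and 28.6 FPKM in the controls and 26.8 and 26.5 in the knockdown libraries. STING1, the adaptor of DNA sensing, looked up after the values were seen, did not exceed 0.0608 FPKM in any library.

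Genes that restrain the pathway, among them SOCS, PIAS and phosphatase genes, also had a median near 0 (-0.0004 over 10 tested). Of the 10, 0 had an unadjusted limma p under 0.05, where 14.3% of all transcripts tested were higher and 3.12% lower. Of the 12 rows, 2 were entirely above the controls, 2 entirely below (33.4% and 13.5% of all rows) and 8 overlapped. PTPN1, a phosphatase that acts on JAK2 and TYK2, was at 63.5 and 70.5 FPKM in NC, against 56.1 and 57.1 in KDM5_KD (log2 fold change -0.24, adjusted p in limma 0.375). CISH, an inhibitor of cytokine receptors, had control values of 10.5 and 9.05 FPKM and knockdown values of 8.67 and 7.41 FPKM (log2 fold change -0.25, adjusted p in limma 0.527). The rows above were RNF125 (1.15 and 0.429 against 1.47 and 1.74 FPKM) and TRIM38 (0.426 and 0.388 against 1.24 and 1.83 FPKM), which encode ubiquitin ligases and were looked up after their values were seen.

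Of the list of other interferon-stimulated effectors, 17 of 24 rows were entirely above the controls and 0 below (33.4% and 13.5% of all rows). Of 16 tested, 11 had an unadjusted limma p under 0.05, all higher, where 14.3% of all transcripts were higher, and 0 passed after adjustment. Among the 11 were SAMHD1, UBE2L6 and NMI, with NC means of 0.229, 0.894 and 0.869 FPKM. They passed the filter through KDM5_KD, so the 11 are not read against that share. LGALS3BP, a secreted glycoprotein, had 16.1 and 4.15 FPKM in NC against 38.5 and 35.0 in KDM5_KD (log2 fold change 2.01 with an SE of 0.518, adjusted p in limma 0.157). Its libraries had the order of IFI6 and ISG15, with NC replicate 2 lowest. PARP12 measured 15.7 and 10.7 FPKM in the controls and 17.3 and 28.4 in the knockdown libraries, and PML, the organizer of nuclear bodies, was at 3.65 and 4.47 FPKM against 6.30 and 7.15 FPKM. CNP (7.65 and 5.04 against 9.01 and 11.3 FPKM) and SHISA5 (7.24 and 7.13 against 9.02 and 12.0 FPKM) did not overlap either.

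Markers of some other cell types differed between the same libraries. Of 14 cumulus and granulosa cell markers, 11 were entirely above the controls (33.4% of all rows), and their summed FPKM was 37.5 and 23.5 in NC and 71.0 and 74.4 in KDM5_KD, the library order of the interferon effectors. Among 11 tested, GJA1, a connexin, passed (6.53 and 5.27 FPKM in NC, 20.2 and 22.1 FPKM in KDM5_KD, adjusted p in limma 0.0333), a call lost without NC replicate 2 or without either knockdown library (limma adjusted p between 0.0516 and 0.232). CYP11A1 (8.41 and 3.79 FPKM in NC, 12.5 and 17.2 FPKM in KDM5_KD), HSD3B1, INHA, INHBA and STAR were among the markers entirely above. FSHR was so too, but at no more than 0.0443 FPKM. AMH, TNFAIP6 and CYP19A1 overlapped, CYP19A1 at no more than 0.0602 FPKM. The genes named from this list were picked after their values were seen. Of 9 fibroblast and epithelial markers 4 were entirely above the controls and 1, KRT5, entirely below, and they summed to 110 and 79.6 FPKM in NC and to 208 and 192 FPKM in KDM5_KD. Among them VIM, the intermediate filament gene of mesenchymal cells, was at 35.6 and 8.09 FPKM in NC, against 84.6 and 98.1 in KDM5_KD (log2 fold change 2.34, adjusted p in limma 0.157). Without VIM the sum was nearly equal in the controls, at 73.9 and 71.5 FPKM, and 123 and 94.0 FPKM in KDM5_KD. LUM (4.02 and 5.12 FPKM in NC, 23.8 and 15.6 FPKM in KDM5_KD, adjusted p in limma 0.061) was entirely above as well. So were COL1A1 (28.4 and 23.9 against 47.7 and 35.8 FPKM) and COL1A2 (0.359 and 0.694 against 4.32 and 2.02 FPKM). In LUM and COL1A2 NC replicate 2 was the higher control. EPCAM, an epithelial adhesion gene, stayed between 26.3 and 30.6 FPKM and overlapped, as did COL3A1, DCN and KRT14. The fibroblast and epithelial markers named here were picked after their values were seen.

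Leukocyte markers summed to 5.55 and 6.37 FPKM in NC and to 7.29 and 7.82 FPKM in KDM5_KD. PTPRC, the pan-leukocyte marker, did not exceed 0.0940 FPKM and TYROBP was listed at 0 in every library. Sperm markers summed to between 0.843 and 1.66 FPKM, with overlapping groups. The oocyte and blastomere markers summed to 604 and 471 FPKM in NC and to 716 and 834 FPKM in KDM5_KD, again with NC replicate 2 lowest. Trophectoderm markers summed to 177 and 195 FPKM in NC and to 184 and 179 FPKM in KDM5_KD, mostly from TFAP2C, and without it to 15.8 and 13.4 FPKM against 27.4 and 26.4 FPKM. Of the 7 trophectoderm rows, 1 (KRT8) was entirely above the controls, 2 (TFAP2C and GATA3) were entirely below and 4 overlapped. Of all rows, 33.4% were entirely above and 13.5% entirely below. KRT8, an epithelial keratin gene picked after its values were seen, had 2.86 and 1.10 FPKM in NC against 18.2 and 9.23 in KDM5_KD (log2 fold change 2.30, adjusted p in limma 0.106), with NC replicate 2 lowest. GATA3 had 6.71 and 5.05 FPKM in NC against 4.73 and 4.49 in KDM5_KD. The part of other cells or of embryo quality in the interferon gene differences was not tested, and in such bulk libraries a different number of cells of a type and a different RNA level per cell cannot be told apart.

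**Figure D4:**
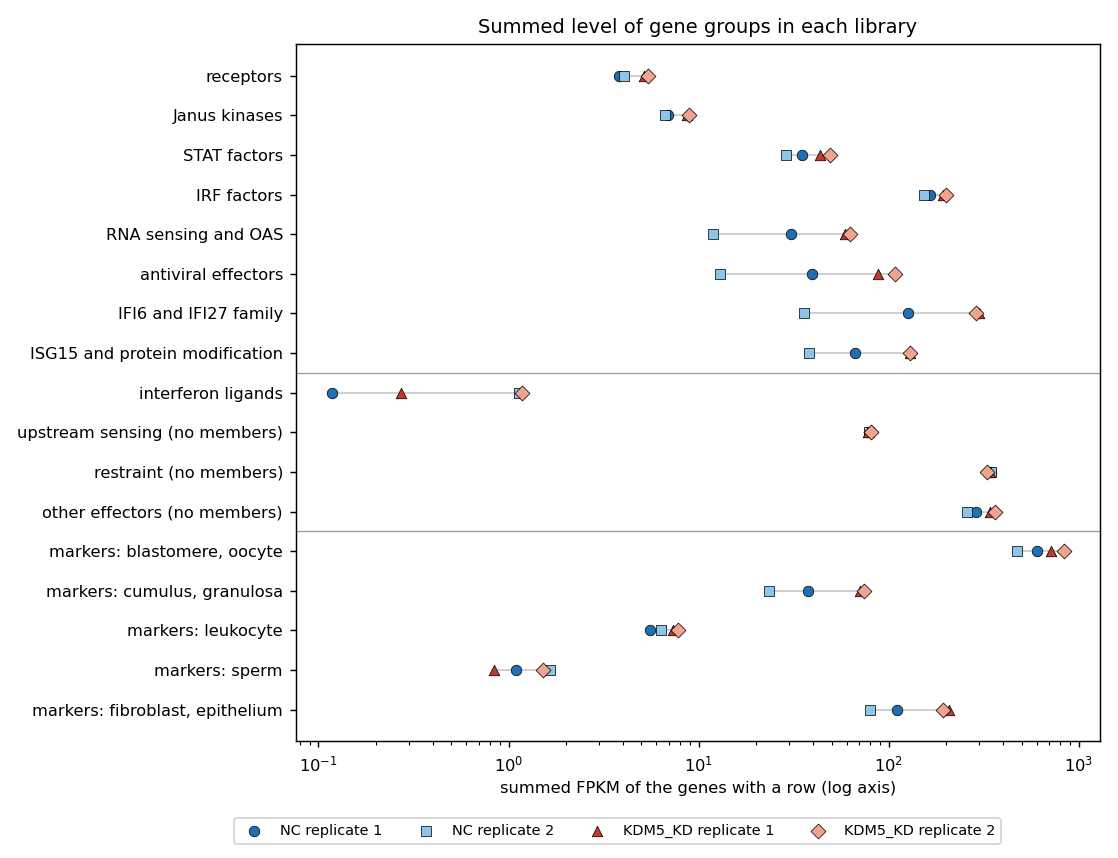
Summed FPKM (log axis) of gene groups in each library, with interferon gene roles at the top, other pathway genes in the middle and cell type markers below. The sensing, effector, IFI6 and ISG15 groups spread widely with NC replicate 2 lowest, the cumulus and granulosa markers also have NC replicate 2 lowest and both knockdown libraries highest (23.5 to 74.4 FPKM), and the upstream sensing and restraint groups barely spread.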

How the data were processed

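The authors deposited FPKM values per RefSeq transcript, 1 column per library, and no column was left unused. Trimmomatic, HISAT2, featureCounts and Cufflinks are named in the submitters' processing notes, without versions or roles. The genome build and annotation are not given in the sources used here, so no genome positions are reported. Per the labels' protocols, oligo(dT)-selected RNA was amplified by PCR, and the sources used here mention neither molecular identifiers nor strand-specific counting. Unique reads and depth are therefore unknown, and precision rests on 2 libraries per group.

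Accessions were matched to symbols of the RefSeq gene list of ARS-UCD2.0 (14295 of 14517 matched). The test was limma 3.58.1 under R 4.3.3, run on log2(FPKM + 1) (lmFit, eBayes with trend, all 4 libraries, no covariates) over transcripts with a mean of at least 1 FPKM, with Benjamini-Hochberg adjustment over all 8970. The fit was also run on simulated data in which the libraries varied independently. Those data lacked the shared difference between the control libraries, so they say nothing on how the fit handles it. An exact permutation test of 2 against 2 libraries cannot go below a two-sided p of 0.333 and was not used. Low values are understated on this scale, and a value of exactly 0 may be an estimate that failed. Roles were assigned after values were seen. The members and lists were chosen with earlier results of these data known. Values per library are given for members with a mean of at least 5 FPKM, and for those at 1 to 5 FPKM when groups do not overlap, apart from a few genes that are not reported here singly but are part of the counts and sums. Pathway genes that are no members are named on the same rule at 5 FPKM, apart from a few picked after their values were seen. As alternatives, the pseudocount was set to 0.1, the filter was dropped or raised to 5 FPKM, and other settings were tried, namely median-ratio, quantile and common-sum scaling, eBayes without a trend or robust, a replicate block and leaving out each library. Tests without microRNA rows and without the 4 genes that match by prefix only were added after seeing the data. Tables and figures were made in Python 3.11.15 (numpy 2.4.6, pandas 2.3.3, matplotlib 3.10.9).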

Additional observations from a re-analysis of the deposited data

How the results depend on the processing

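With all 4 libraries kept, 0 members passed in limma under any of the 10 alternatives, and the lowest adjusted p of a member was 0.0766. Leaving out 1 library gave between 0 and 13 members higher and 0 lower. The median log2 fold change of the members tested was 0.91 with a pseudocount of 0.1, 0.35 after quantile normalization, and between 0.49 and 0.90 with a library left out. Members entirely above NC numbered 15 of 20 with a filter at 5 FPKM, because fewer were tested, against 29.4% of the 6130 rows at that filter. Over all transcripts, 2 were higher and 1 lower without a filter, 11 higher with the filter at 5 FPKM, 7 higher with a common sum (and 7 lower), 6 higher without a trend (and 6 lower), and 37 higher with robust eBayes, against 17 and 8. With a library left out, 3 to 323 were higher and 3 to 17 lower. A replicate block in the fit left 8 higher and 4 lower transcripts and 0 members. The same-numbered libraries share only a number (correlation of deviations 0.229 over 2 pairs). GJA1 lost its call without a filter, with a common sum, without a trend and with the block (adjusted p in limma between 0.0591 and 0.197). KDM5A stayed at -1.35 but lost its call without a filter, without a trend and with the replicate block, and lay between -1.38 and -1.32 with a library left out. After quantile normalization the signs turned for IFNGR1 (-0.22), TYK2 (-0.27), MYD88 (-0.12), JAKMIP1 (-0.083), IFI30 (-0.019), IFNAR1 (-0.0083) and STAT2 (-0.0003). Median-ratio scaling and the common sum turned TYK2 (-0.061 and -0.078) and MYD88 (-0.012 and -0.017), and a pseudocount of 0.1 turned IRF5 (0.0019). The cause of these changes was not tested. Leaving out a library gave both signs for IRF1 (-0.42 to 0.20), IRF5 (-0.33 to 0.31), IRF7 (-0.038 to 0.93), IRF8 (-0.024 to 0.53), TYK2 (-0.10 to 0.14), ISG20L2 (-0.13 to 0.034) and KDM6A (-0.37 to 0.15), so their direction is not determined. No floor of detection is given, since depth in reads is unknown.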

Other observations

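The enzymes that attach ISG15 to proteins were looked at beside ISG15 itself, picked after their values were seen. UBE2L6, the conjugating enzyme, was at 1.42 and 0.369 FPKM in NC, against 3.95 and 2.41 in KDM5_KD (log2 fold change 1.17). The NC mean of UBE2L6 was 0.894 FPKM, so it passed the filter through KDM5_KD and nothing is read from its test. The ligase genes HERC5 and HERC6 were at 1.14 and 1.09 FPKM against 2.13 and 2.41 FPKM, and at 2.39 and 0.473 FPKM against 5.92 and 4.95 FPKM. UBA7, the activating enzyme, overlapped between groups, with 9.96 and 5.26 FPKM in NC and 10.8 and 8.58 FPKM in KDM5_KD. SAMHD1, which degrades nucleotides needed for viral replication, had control values of 0 and 0.458 FPKM and knockdown values of 2.05 and 2.67 FPKM. It passed the filter on low values only through KDM5_KD, so its test is not given singly and nothing is read from it.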
